A study of Mus musculus with 10 samples.

Results

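The 10 genes described here were chosen as markers of the dopamine, GABA, glutamate and peptide neurons of the AVPV, a part of the hypothalamus. Their expression was not examined here, so they are not to be taken as restricted to the AVPV. In the study, AVPV stands for the rostral area along the third ventricle, with both the anteroventral periventricular and the periventricular nucleus. The genes are Th, Slc6a3 and Slc18a2 (dopamine), Gad1, Gad2 and Slc32a1 (GABA), Slc17a6 (glutamate), and Penk, Nts and Gal (peptides). They are 10 of the 26180 genes with a RefSeq transcript on the main chromosomes of mm10. Their members in the data are ERα peaks, taken where a peak lay in the gene body or within 100 kb of any RefSeq start site of the gene. Of 25982 peaks, 35 met this rule, and they fell into 11 of the 8072 regions made by merging peaks that share at least 1 bp. The peaks came from ChIP-seq of the arcuate nucleus and of the AVPV, in which DNA pulled down with an ERα antibody is sequenced and stretches rich in reads are called as peaks. All libraries came from female C57BL/6 mice that were ovariectomised, carried an estradiol implant (0.1 mg/mL) and were collected 28 h after estradiol benzoate (0.05 mg/kg), and no vehicle-treated library was used here. Each nucleus had 4 libraries, which were prepared from pooled chromatin of dissected tissue. Whether each library had a pool of its own is not given in the sources used here, so SDs and p-values measure the spread between libraries, which may be technical.

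Tyrosine hydroxylase (Th) makes the precursor of dopamine, the vesicular monoamine transporter (Slc18a2) loads dopamine into vesicles and the dopamine transporter (Slc6a3) takes it back up. Gad1 and Gad2 encode the enzymes that make GABA from glutamate, and Slc32a1 the transporter that fills vesicles with it, while Slc17a6 (Vglut2) fills vesicles with glutamate in most hypothalamic excitatory neurons. Penk, Nts and Gal encode the precursors of enkephalin, neurotensin and galanin. The AVPV holds estrogen-sensitive neurons of these types, some of which also make kisspeptin, and takes part in the surge of luteinising hormone. ERα is a nuclear receptor that binds an inverted repeat of the half-site GGTCA with 3 bases between its arms, the estrogen response element, or reaches DNA through other proteins. Peak lists hold no expression, so the identity of the dissected tissue could not be checked here against markers, and a bound site in tissue does not tell which cells carried it.

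The deposited lists held 3251 to 4079 peaks in the arcuate libraries and 2367 to 3347 in the AVPV libraries. The 10 windows took 4, 7, 4 and 3 peaks of arcuate libraries 1 to 4, or 4.5 ± 1.73 (SD, n = 4), and 3, 3, 7 and 4 peaks of AVPV libraries 1 to 4, or 4.25 ± 1.89 (SD, n = 4). As a share of each list these were 0.122% ± 0.0421 for the arcuate lists and 0.146% ± 0.0423 for the AVPV lists (SD, n = 4 each). The highest counts stood in arcuate library 2 and in AVPV library 3, where peaks lay in the windows of 4 and 6 of the genes. The strength of a peak is given below as its fold enrichment over the background that the peak caller estimated and as the percentile of that ratio among all peaks of the same list. All tests below are two-sided. No reads were analysed, so the lists leave unknown whether ERα was bound where no peak was called. In tissue, fewer cells with a bound site and less binding per cell cannot be told apart.

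The sequences under the 6 strongest sites of these genes are printed first, since the results below refer to them. Each is the plus strand of mm10 (RefSeq GRCm38.p6) around the summit of the highest-ranking peak, cut at the start site for Slc17a6, and capitals mark the stretch closest to the palindrome of GGTCA, any 3 bases and TGACC (at most 2 mismatches in its 10 fixed bases, searched on both strands, which are alike).
Gad2 promoter, chr2:22621884-22622084, plus strand: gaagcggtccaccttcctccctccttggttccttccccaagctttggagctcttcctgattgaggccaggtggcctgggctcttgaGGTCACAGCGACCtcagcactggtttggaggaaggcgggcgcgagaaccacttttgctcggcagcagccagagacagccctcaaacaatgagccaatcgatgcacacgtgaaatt
Slc17a6 promoter, chr7:51621694-51621829, plus strand: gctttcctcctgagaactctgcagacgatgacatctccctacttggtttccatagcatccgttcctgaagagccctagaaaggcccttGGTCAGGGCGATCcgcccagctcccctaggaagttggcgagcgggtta
Nts downstream, chr10:102455894-102456094, plus strand: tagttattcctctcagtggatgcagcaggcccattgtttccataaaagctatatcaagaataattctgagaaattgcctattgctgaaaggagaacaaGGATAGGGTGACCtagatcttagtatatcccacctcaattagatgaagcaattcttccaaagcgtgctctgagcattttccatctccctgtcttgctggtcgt
Slc32a1 far upstream, chr2:158523196-158523396, plus strand: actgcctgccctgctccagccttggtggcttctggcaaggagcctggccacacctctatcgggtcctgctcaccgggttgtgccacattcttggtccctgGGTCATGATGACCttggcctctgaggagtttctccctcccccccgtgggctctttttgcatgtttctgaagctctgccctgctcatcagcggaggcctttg
Gal downstream, chr19:3401724-3401924, plus strand: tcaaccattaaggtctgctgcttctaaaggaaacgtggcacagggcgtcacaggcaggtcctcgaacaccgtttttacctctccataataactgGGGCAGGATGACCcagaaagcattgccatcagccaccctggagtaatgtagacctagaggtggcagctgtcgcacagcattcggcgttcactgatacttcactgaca
Gal upstream, chr19:3459104-3459304, plus strand: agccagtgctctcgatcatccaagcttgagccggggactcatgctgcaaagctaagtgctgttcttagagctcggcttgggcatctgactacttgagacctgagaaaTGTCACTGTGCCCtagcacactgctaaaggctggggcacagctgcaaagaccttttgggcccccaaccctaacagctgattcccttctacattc
The Slc32a1 site held the palindrome without a mismatch, the Gad2 site and the nearer Gal site with 1, and the sites of Slc17a6, Nts and the farther Gal site with 2.

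The 11 regions lay in the windows of 7 of the 10 genes, and a site, meaning a peak in at least 2 of 4 libraries of a nucleus, lay in those of 6. Among all RefSeq genes 56.3% had a region in the same window and 40.8% a site. Of the 11 regions 7 were sites, against 54.4% of all regions. Called in both nuclei were the Gad2 promoter and a region downstream of Gal. Called as sites of the arcuate only were the Slc17a6 promoter, a region upstream of Gal and a region far upstream of Slc32a1. Called as sites of the AVPV only were a region downstream of Nts and a region past Gad1. The other 4 regions had a peak in 1 library each. The shares of all regions in these classes are not given here, and the arcuate lists were mostly longer than the AVPV lists. The split therefore cannot be read as a trait of these genes. Members per gene ran from 0 to 3 regions, with a median of 1, which was also the median over all RefSeq genes. The farthest member lay 87.6 kb from its start site, in the Slc32a1 window, and the nearest region outside any of these windows lay 111 kb from the Slc17a6 start, in an exon of Ano5.

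**Figure D1:**
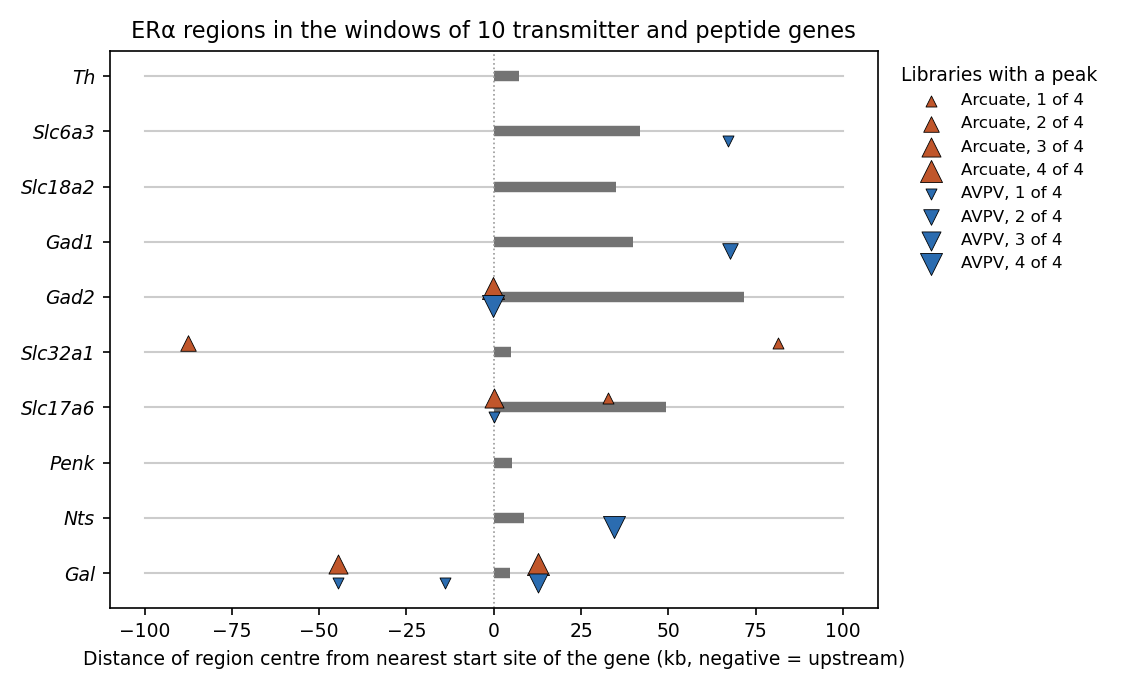
Position of the 11 regions relative to the nearest start site of each gene in kb along the x axis, with 1 row per gene and the gene body as a grey bar. Upward triangles stand for arcuate and downward triangles for AVPV libraries, sized by the number of 4 with a peak, and Th, Slc18a2 and Penk have none.

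Among the GABA genes, the Gad2 promoter carried the strongest and most regular site. The region ran from 22621541 to 22622635 on chromosome 2, across the start site of Gad2 at 22622327 on the plus strand, and its centre lay 0.239 kb upstream. All 8 libraries had a peak there, as did 13.5% of all regions. Promoter regions made up 43.1% of the regions called in 8 libraries, against 25.3% of all regions. Fold enrichment was 20.3, 18.1, 16.8 and 20.9 in arcuate libraries 1 to 4, and 18.5, 22.5, 27.8 and 25.0 in AVPV libraries 1 to 4. The ranges overlapped, with the 3 highest values in AVPV libraries. Within the lists the percentiles were 96.7, 96.4, 94.6 and 96.9 in the arcuate and 94.8, 97.1, 97.9 and 97.8 in the AVPV. Arcuate and AVPV means were 96.1 ± 1.06 and 96.9 ± 1.46 (SD, n = 4 each), a difference of -0.768 points that did not exceed the spread among them (exact permutation of library labels, p = 0.429, and 0.614 adjusted by Benjamini-Hochberg over the 1089 regions called in 8 libraries). Of those 1089 regions, 21% reached an unadjusted p under 0.05 in that test and 0 an adjusted one. The -log10 q-values of the peaks were 48.0 to 76.6 in the arcuate libraries and 73.5 or more in the AVPV libraries. The mean percentile over all 8 libraries was 96.5, rank 83 of the 1089, whose median was 76.5.

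The summits of the 8 Gad2 peaks lay between positions -348 and -262 bp relative to the start, a span of 86 bp. The best match to the palindrome, GGTCACAGCGACC, was centred 351 bp upstream and 3 to 89 bp from the 8 summits. The region held 3 matches in all, and the others, GGTCTCCCTGTCC and GGTCACCTAGGCC, were centred 207 and 190 bp upstream with 2 mismatches each. Among the 1191 sites of the whole series that lay in promoters (1 kb before to 100 bp after a start site), 13.0% had a match of up to 2 mismatches no farther than 100 bp from the summit and 3.53% one of up to 1. The 100 bp on either side of the summit were 57.7% G or C, against a median of 62.7% in promoter sites, and held 8 CpG dinucleotides, against a median of 17.

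**Figure D2:**
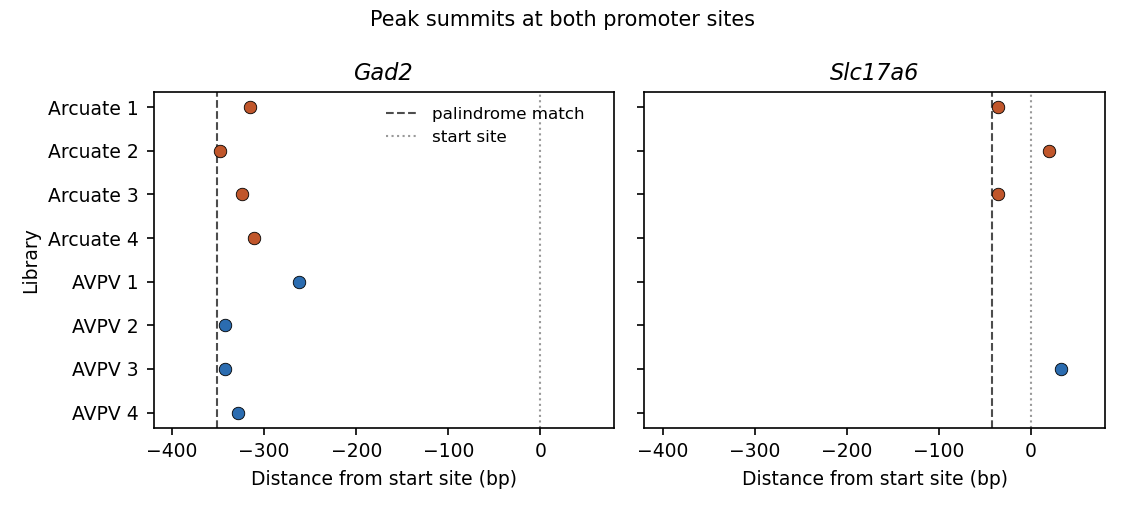
Distance of each peak summit from the start site in bp for the promoters of Gad2 (left) and Slc17a6 (right), 1 row per library, arcuate in orange and AVPV in blue, with the best palindrome match as a dashed and the start as a dotted line. The 8 Gad2 summits lie between -348 and -262 bp, and the 4 Slc17a6 summits from 36 bp upstream to 32 bp downstream.

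Gad1 and Slc32a1 had no peak near their starts. In the Gad1 window the region was intergenic, from 70629560 to 70629789 on chromosome 2, and lay 67.5 kb downstream of the Gad1 start, beyond the end of the gene and nearer to the start of Gorasp2 (31.8 kb). Peaks were called in AVPV libraries 1 and 3, with fold enrichments of 5.33 and 4.83 at percentiles 31.6 and 25.3, and in no arcuate library (2 of 4 against 0 of 4, p = 0.429, Fisher's exact test). It stood in the lower part of both lists, was no longer a site without either library and held no match to the palindrome with at most 2 mismatches.

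For Slc32a1 the upstream region ran from 158522938 to 158523458 on chromosome 2, 87.6 kb before the start of the gene and in an intron of Arhgap40, whose start was the nearest at 10.4 kb. Arcuate library 2 had a peak of 11.0-fold enrichment at percentile 87.2 and arcuate library 4 a peak of 5.77-fold at percentile 48.0, while no AVPV library had one (p = 0.429, Fisher's exact test). Without either of these libraries it was no longer a site. Its palindrome, GGTCATGATGACC, was centred 6 and 76 bp from the summits in libraries 2 and 4. Such a perfect palindrome was found this close to the summit, 100 bp at most, in 541 of all regions (6.70%) and, among sites outside promoters, where this one lies, in 12.6%. The downstream region, 81.5 kb past the start in an intron of Ppp1r16b, had a single peak in arcuate library 2 at percentile 27.0.

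The glutamate gene Slc17a6 had a region over its own start site, from 51621639 to 51622000 on chromosome 7. Peaks were called in arcuate libraries 1, 2 and 3, at 8.98, 4.11 and 7.30 fold over background, and in AVPV library 3 at 5.01. The percentiles were 77.5, 11.8 and 64.1 in the arcuate and 28.6 in the AVPV, so the lone AVPV peak stood between the weakest and the other arcuate peaks. A count of 3 of 4 against 1 of 4 libraries did not separate the nuclei (p = 0.486, Fisher's exact test). The stronger arcuate peaks had their summits 36 bp upstream of the start, 6 bp from the element GGTCAGGGCGATC, which was centred 42 bp upstream with 2 mismatches. The summits of arcuate library 2 and AVPV library 3 lay 20 and 32 bp downstream of the start, 62 and 74 bp from it. The window around the strongest summit also held a GC box (GGGCGG, both strands), as did 42.6% of promoter sites. A second region lay in an intron of Slc17a6, 32.9 kb downstream of a start, with a peak in arcuate library 2 only, at percentile 10.5.

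**Figure D3:**
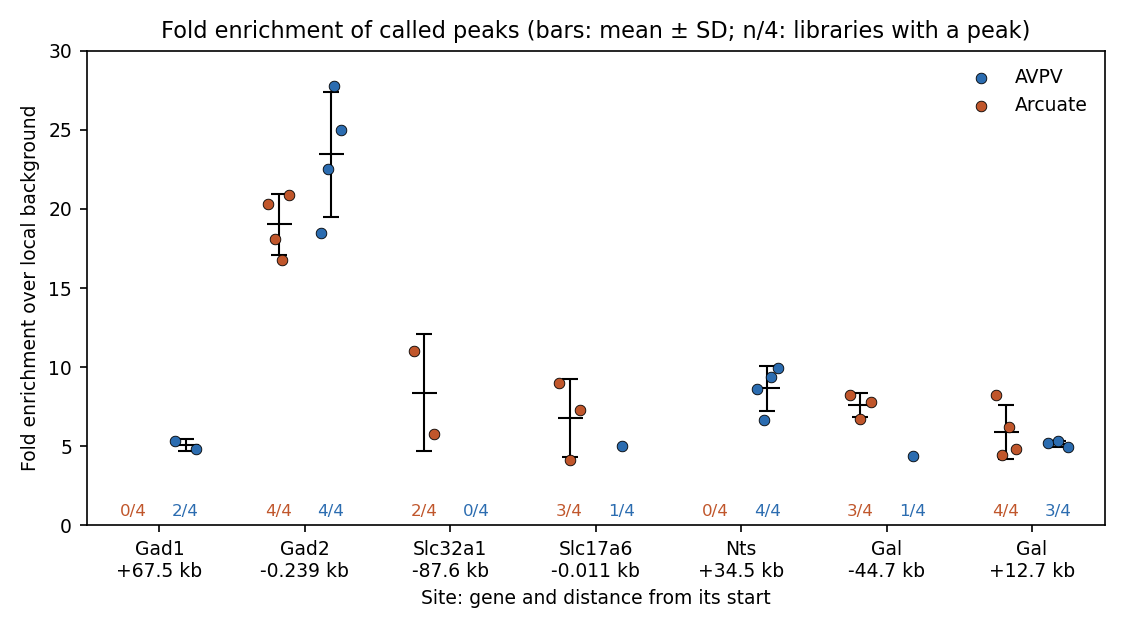
Fold enrichment over the local background (y axis, linear) of each called peak at the 7 sites, arcuate in orange and AVPV in blue, with the mean ± SD where at least 2 libraries had a peak and the number of libraries with a peak below. The Gad2 promoter stands at 16.8 to 27.8 in all 8 libraries, and no peak of the other sites passes 11.0.

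The dopamine genes were almost without peaks. No region lay in the windows of Th and Slc18a2. The region nearest to the Th start (chromosome 7, 142899995, minus strand) was 169 kb away, had peaks in all 8 libraries and covered the promoter of Tssc4. For Slc18a2, with its start at 59260878 on chromosome 19, the nearest region was 231 kb away in an intron of Shtn1, with peaks in 2 AVPV libraries and no arcuate library. The window of Slc6a3 held a single peak, of AVPV library 3 (fold enrichment 5.01, percentile 28.6), from 73603759 to 73603960 on chromosome 13. It lay 67.1 kb downstream of the Slc6a3 start and 0.143 kb from that of Clptm1l, in whose promoter it was annotated. The median gene had its nearest region 79.1 kb from a start, and 31.4% and 24.3% of genes had a wider gap than Th and Slc18a2, so such gaps were common. The Th promoter contained a match with 2 mismatches, CGTCAGCCTGGCC, centred 36 bp before the start, and no library had a peak over it.

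Of the peptide genes, Nts had the one region that divided the nuclei completely. It was intergenic, from 102455694 to 102456152 on chromosome 10, 34.5 kb downstream of the Nts start (102490418, minus strand) and past the end of the gene, and Nts was the nearest gene, with Rassf9 next at 56.3 kb. All 4 AVPV libraries had a peak, with fold enrichments of 8.63, 6.65, 9.39 and 9.93, and no arcuate library had one. The percentiles were 71.5, 56.1, 78.7 and 78.7, or 71.2 ± 10.6 (SD, n = 4), so that each peak stood in the upper part of its list. For 4 of 4 against 0 of 4 libraries, Fisher's exact test gave an unadjusted p of 0.0286, the smallest that 4 libraries against 4 allow. Adjusted by the Benjamini-Hochberg method over all 8072 regions it was 0.969, and 0 regions passed the threshold after adjustment. Such a complete division in either direction was found in 2.95% of all regions, and with the peaks in the AVPV in 0.818%, or 66 regions. By the lowest of its 4 percentiles, the Nts region ranked 11 among those 66, whose median lowest percentile was 26.8.

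The best match in the Nts region was GGATAGGGTGACC with 2 mismatches. It lay 4, 57 and 4 bp from the summits in AVPV libraries 1, 3 and 4 and more than 100 bp from that in AVPV library 2, which was also the weakest of the 4 peaks. The 100 bp on either side of the strongest summit were 41.8% G or C, against a median of 48.3% in sites outside promoters.

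Gal had the most regions, 3, none of them in the gene body. The nearest ran from 3401667 to 3402104 on chromosome 19, 12.7 kb downstream of the Gal start (3414544, minus strand) and in an intron of Tesmin, whose start was 12.5 kb away. Peaks were called in all 4 arcuate libraries, at 8.21, 4.43, 6.19 and 4.80 fold over background, and in AVPV libraries 2, 3 and 4 at 5.20, 5.32 and 4.94. The percentiles were 72.1, 17.5, 49.2 and 24.8 in the arcuate and 29.2, 36.2 and 24.0 in the AVPV, with the AVPV values inside the arcuate range (4 of 4 against 3 of 4 libraries, p = 1, Fisher's exact test). Its element, GGGCAGGATGACC, had 1 mismatch and lay within 65 bp of all 7 summits, at 0 bp from that of arcuate library 1.

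The farther Gal site lay 44.7 kb upstream, from 3459102 to 3459378 on chromosome 19, in an intron of Ppp6r3, although the Gal start was the nearest one. Arcuate libraries 1, 2 and 3 had peaks with fold enrichments of 8.21, 6.73 and 7.82 at percentiles 72.1, 61.3 and 69.0, and AVPV library 4 had one of 4.37 at percentile 12.6. The 3 arcuate peaks all ranked higher in their lists than the AVPV peak, but 3 of 4 against 1 of 4 libraries did not pass the test (p = 0.486, Fisher's exact test). Between this site and the gene, 14.1 kb upstream, AVPV library 3 alone had a peak, at percentile 5.90. Penk had no region, and the nearest was 303 kb from a start, at the promoter of Rps20, with peaks in 4 arcuate and 2 AVPV libraries. A wider gap was found for 18.9% of genes.

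**Figure D4:**
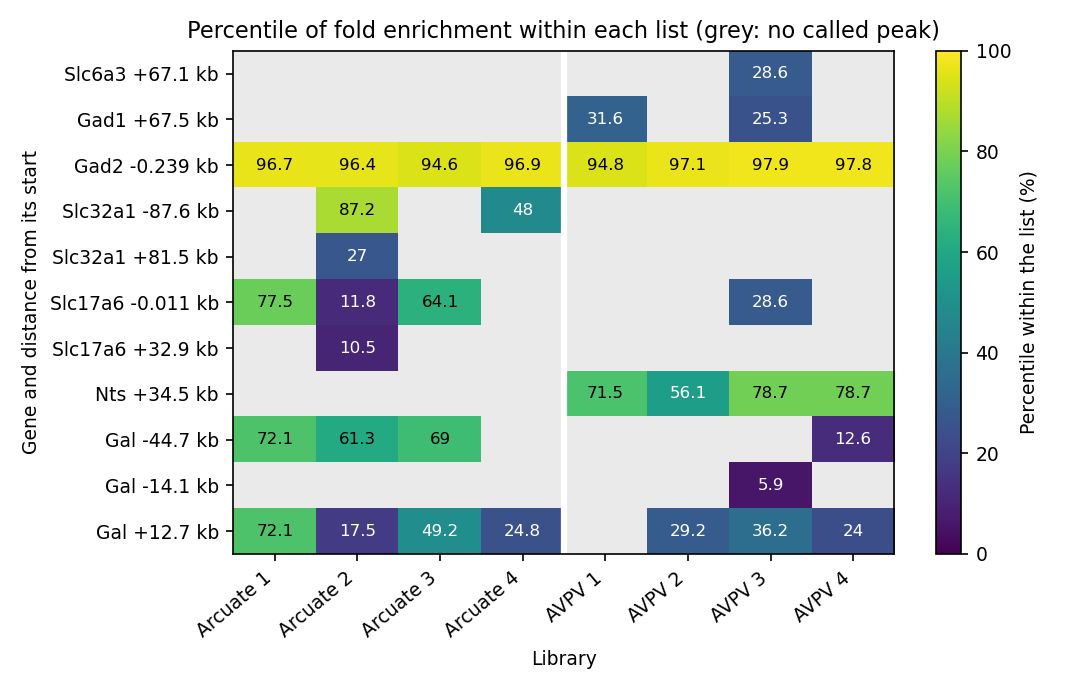
Percentile of fold enrichment within each list (colour and number, 0 to 100) for the 11 regions in rows and the 8 libraries in columns, grey where no peak was called. Gad2 is above percentile 94 throughout, the Nts region is filled in the 4 AVPV columns only, and the Slc17a6 promoter and the upstream Gal site are filled in 3 arcuate columns and 1 AVPV column.

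The number of peaks per library in the whole window was compared between nuclei in the same way for each gene. The Nts window held 1 region, so for Nts this test used the same values as Fisher's exact test above and adds no second result. Nts had 0 peaks in each arcuate and 1 in each AVPV library (p = 0.0286 by exact permutation of library labels, and 0.898 adjusted by Benjamini-Hochberg over 14739 genes with a region). Unadjusted p-values under 0.05 were found for 3.18% of those genes, many of which share a region with a neighbour, and adjusted ones for 0 of them. Gal had 1.75 ± 0.5 peaks per arcuate and 1.25 ± 0.957 per AVPV library (SD, n = 4 each, p = 0.714 by exact permutation). Slc17a6 had 1.0 ± 0.816 and 0.25 ± 0.5 (exact permutation, p = 0.371), and Slc32a1 0.75 ± 0.957 and 0 (exact permutation, p = 0.429). Gad1 had 0 and 0.5 ± 0.577 (exact permutation, p = 0.429) and Slc6a3 0 and 0.25 ± 0.5 (exact permutation, p = 1). Gad2 had exactly 1 peak in every library of both nuclei. Nts apart, none of the 7 genes with a region passed this test.

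Features that the choice of genes did not use were read within 100 bp of the strongest summit in each region. A palindrome with at most 2 mismatches lay in 6 of the 7 sites and in 1 of the 4 regions of a single library, and in 56.7% of all sites and 48.4% of all regions. The share was 73.0% in sites outside promoters, to which all of the 7 except those at the Gad2 and Slc17a6 promoters belong, and 13.0% in promoter sites. With at most 1 mismatch the count was 3 of 7, against 32.8% of all sites and 43.7% of those outside promoters. A GGTCA half-site on either strand was present in 6 of the 7 sites, against 62.3% of all sites and 74.6% of those outside promoters. An AP-1-like heptamer (TGANTCA, its own reverse complement) was in 0 of the 7 sites, against 6.45% of all sites, and in 2 of the 11 regions, against 6.23% of all regions. Those 2 were the downstream Slc32a1 region and the intronic Slc17a6 region, each with a peak in 1 library. Of the 11 regions, 3 had their centre in a promoter, at Gad2, Slc17a6 and Clptm1l, against 25.3% of all regions. For both promoter sites of the members the palindrome was present, but with 7 sites no more than these counts can be given.

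The palindrome without mismatch occurred 2367 times on the main chromosomes, and 23.9% of these places lay in a called region. The windows of the 10 genes held 4 of them, of which 1 was called, that of Slc32a1. The other Slc32a1 palindrome lay 48.5 kb from the start without a peak, the windows of Gad1 and Slc6a3 held 1 each without a peak, 60.9 and 47.7 kb from the start, and those of Th, Slc18a2, Gad2, Slc17a6, Penk, Nts and Gal held 0. In the RefSeq promoter sequences of GRCm38.p6, which span 250 bp before to 50 bp after a start, 10 promoters of 9 of the genes were found, all except Penk. A match with at most 2 mismatches was in 4 of the 10, those of Gad2, Gal, Slc17a6 and Th, and in 11.1% of 32851 promoters. A GGTCA half-site was also in 4 of the 10, against 40.5% of all promoters. Called regions covered the matches of Gad2 and Slc17a6, and no library had a peak over those of Gal (GGTCACAGCGGCC, centred 20 bp before the start) and Th.

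A list of 37 further genes of the same pathways was looked up in the same way. Of these, 21 had a region in the window and 14 a site, against the 56.3% and 40.8% of all RefSeq genes given above. By system, sites were found for 5 of 12 dopamine genes, 2 of 5 GABA genes, 2 of 8 glutamate genes and 5 of 12 genes of peptide processing and reception. For 0 of the 21 with a region did the number of peaks per library differ between nuclei (exact permutation, unadjusted p under 0.05), against 3.18% of all genes with a region. The others of the 37 had no peak to compare. Sites in the gene body or within 20 kb of a start were found for 4 of the 37, and for 17.5% of all RefSeq genes. Dbh, which turns dopamine into noradrenaline, had a site in an intron 11.3 kb past its start, with peaks in 4 arcuate and 2 AVPV libraries (p = 0.429, Fisher's exact test). Abat, which breaks down GABA, had one in an intron 25.8 kb past its start, with peaks in 2 arcuate and 3 AVPV libraries (p = 1 by Fisher's exact test). Oprm1, the mu opioid receptor, had a site in an intron 76.1 kb past its start, with peaks in 3 arcuate and 0 AVPV libraries (p = 0.143, Fisher's exact test). Another Oprm1 site, 103 kb past the start and in an intron of Ipcef1, had peaks in 0 arcuate and 2 AVPV libraries (p = 0.429, Fisher's exact test). Ddc, the enzyme that acts after tyrosine hydroxylase, had a site 22.2 kb past its start, annotated to an intron of 1700042O10Rik, with peaks in 1 arcuate and 3 AVPV libraries (p = 0.486 by Fisher's exact test).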

How the data were processed

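ERα ChIP-seq was analysed in 4 arcuate and 4 AVPV libraries, grouped by their titles. The authors aligned 75-nt reads to mm10 with bowtie2 2.5.0 and called peaks with MACS2 2.2.7.1 in each library, per the submitters' processing notes and the study's methods, and the control used is not given in the sources used here. For each peak the deposited lists hold the ratio of its signal to background (fold enrichment), a p-value and a q-value as -log10, and a score. The score is the -log10 q times 10, cut to whole numbers, and was not used. The highest q in any list was 0.0493. Each list was called separately, so strengths were compared as percentiles within a list (ties counted at their mean rank). The 2 inputs have no list here. The files hold no read counts, so depth is not known from them.

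Peaks of the 8 libraries were joined into a region where they overlapped by 1 bp or more. Windows were drawn around the starts of 45756 RefSeq transcripts (GRCm38.p6). Tests were Fisher's exact test per region and exact permutation of library labels per gene and per region, run over all regions or genes with Benjamini-Hochberg adjustment. Motifs were read within 100 bp of the summit of the highest-ranking peak. All 10 genes and each of their sites are named, by rule, as are further pathway genes with a site in the gene body or within 20 kb of a start. The genes, lists and tests were chosen with earlier results of these data known. The tests and the assignment of regions to windows were tested on simulated data. Alternatives were the merging, thresholds, windows, site rule, scaling, a replicate block, each library left out and, added after seeing the data, GENCODE M21 starts. Python 3.11.15, numpy 2.4.6, pandas 2.3.3, scipy 1.17.1, pysam 0.24.0 and matplotlib 3.10.9 were used.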

Additional observations from a re-analysis of the deposited data

Results flagged for a closer look

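AVPV library 3 stood apart from the other AVPV libraries in the share of its list that lay in the 10 windows. The share was 0.209%, against 0.118% to 0.131% in AVPV libraries 1, 2 and 4, and the gap was wide for 4 samples by Dixon's test, which was run on 15 groups and flags about 1 in 20 by chance. It had the longest AVPV list, with 3347 peaks, and its extra peaks were the single-library ones near Slc6a3 and upstream of Gal and those at Gad1 and Slc17a6, at percentiles of 5.90 to 28.6. Without it the number of regions was 9 and the region past Gad1 was no longer a site.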

How the results depend on the processing

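For the counts, 106 alternative values stayed within 1.5 times the original and 22 did not, and for single genes and regions 132 kept their side of the threshold and 1 did not (Nts with the replicate block). Among the 132, the Gal difference of 0.5 peaks per library was 0 with windows of 20 kb, and that of Gad2, 0, was -0.0855 as peaks per 1000 of the list. The 11 regions became 7 with windows of 50 kb, 5 with windows of 20 kb and 6 when only the nearest start counted. The number of sites of both nuclei, 2, became 1 with the nearest start only or all 4 libraries required, and 4 with 1 library. The number of arcuate-only sites, 3, became 1 with windows of 20 kb and 1 with all 4 libraries required, where the 1 was the downstream Gal region and none of the 3, and was 2 without arcuate library 2 or 4. The number of AVPV-only sites, 2, became 1 with fold enrichment above 5, lists of equal length, windows of 50 kb, the nearest start only, or 3 or 4 libraries required, 4 with 1 library and 0 with windows of 20 kb, and ranged from 1 to 2 with each library left out, 1 without AVPV library 1 or 3. With windows of 20 kb, which leave out the Nts region, 0 regions and 0 genes divided the nuclei in place of 1. Leaving out any library kept the Nts region divided, as it must for a region with peaks in every AVPV and no arcuate library. The 7 regions with a palindrome became 3 with at most 1 mismatch.

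With the replicate numbers as a block, 0 genes had a p under 0.05 in place of 1, since 4 pairs cannot go below 0.125, the value for Nts (exact sign-flip test, two-sided). Libraries with the same number correlated at 0.0493, -0.00563, 0.00711 and -0.213 in their deviations from the means of their nuclei. Those with different numbers correlated at -0.22 to 0.239. With 4 libraries per nucleus, such values do not tell whether the numbers pair the libraries. Without reads, a weak site below the calling threshold cannot be told from an unbound one.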
